A study of Arapaima gigas with 24 samples.

Results

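The ovaries of 3 female Arapaima gigas (pirarucu, a large air-breathing fish of the Amazon basin) were compared with the brains of the same 3 fish. The comparison used the 6 female samples of the 12 in the series, each the sum of 2 count columns, called run 1 and run 2 here, and was chosen by the sex, tissue and fish number that the labels give. It covered 22016 gene models. The females came from a fish farm in the breeding season, at an age of 4 years or more and a length of 100 to 120 cm, and were sexed by the primary oocytes in their ovaries. No treatment or genotype is given, and the 3 males of the series, sexed by spermatozoa in the testis, serve here as a second set of gonads and brains. The labels give 24 libraries for the 12 samples and tell the 2 of a sample apart by a prefix that they do not explain. Poly(A) RNA was read as 50 nt reads on a SOLiD 4 sequencer.

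A fish ovary holds oocytes at different stages inside follicles. Oocytes store messenger RNA and proteins for the future embryo and make egg coat proteins, and the follicle cells around them make steroid hormones, oestrogens among them. The brain is built of neurons, which carry the proteins of synapses and axons, and of glia. In fish, radial glia of the brain also make aromatase, the enzyme that turns androgens into oestrogens. Genes of these kinds separate the 2 tissues in vertebrates in which both have been profiled. In bulk samples such as these, fewer cells of a type and less RNA per cell cannot be told apart.

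The gene models of the deposited table carry identifiers of the Asian arowana gene set that the table does not pair with gene names, and no annotation of them was used here. Neither the ovary nor the brain could therefore be checked against defining genes such as those of oocytes, follicle cells, neurons, glia or blood, and no identifier or function is given to any gene model below. Lists of such genes had been drawn up and could not be matched. Reads were mapped to the arowana genome, per the series design text, so a level depends on how well the sequences of both species match as well as on expression, and comparisons are made here between samples for the same gene model.

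Counts summed over both runs came to 6601933, 9532066 and 11646782 in the ovaries of females 1, 2 and 3, and to 13142667, 10716132 and 5689872 in their brains. The deeper tissue was the brain in females 1 and 2 and the ovary in female 3. The median count of a gene model lay between 135 and 335 in these samples. At most 1 gene model had no count in a sample, so that nearly every gene model had reads in both tissues. Whether all such reads come from expression of that gene model in that tissue was not tested. Each of the 3 ovaries had its highest correlation with a brain and not with another ovary (Pearson r across gene models, log2 CPM). The ovary of female 1 gave 0.965 with the 3 brains, against 0.960 and 0.948 with the ovaries of females 2 and 3. That of female 2 gave 0.973 with the brain of the same fish, against 0.960 and 0.956 with the ovaries of females 1 and 3. With the brains of females 1 and 3 it gave 0.961 and 0.960. That of female 3 gave 0.971 with the brain of female 1, against 0.948 and 0.956 with the other 2 ovaries. With the brains of females 2 and 3 it gave 0.956 and 0.962, so not every brain lay above every ovary. Depth differed between the samples, and its part in these values was not tested. The labels are used here as given.

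Ovary and brain of the same female had very similar profiles of mapped counts. Over all gene models, the log2 CPM of both tissues gave Pearson r = 0.965 for female 1, 0.973 for female 2 and 0.962 for female 3. Ovaries of different females correlated at 0.948 to 0.960, brains of different females at 0.963 to 0.975, and an ovary with the brain of another female at 0.956 to 0.971. These ranges overlap, and that among ovaries was the lowest. The 2 runs of 1 sample correlated at 0.972 to 0.986, above most of these values. A single run is shallower than the sum of both runs, which the other values used. All these samples share the same gene models, and differences in gene length and mapping raise every one of these correlations.

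No gene model passed the test between ovary and brain. With the fish as a block, edgeR's quasi-likelihood test called 0 of 22006 gene models (0%) at a Benjamini-Hochberg adjusted p under 0.05, and the smallest adjusted p was 0.9999. At an unadjusted p under 0.05 there were 656 (2.98%), with 383 (1.74%) on the ovary side and 273 (1.24%) on the brain side, where evenly spread p-values would give 1100. Among these 656 the median absolute log2 fold change was 0.49 and 32 were at least 2-fold, against a median of 0.10 and 75 of at least 2-fold over all gene models tested. The 656 were picked by p in the same fit, which favours large changes, so this contrast is a description only. The split by direction moved with the scaling, to 280 on the ovary and 359 on the brain side with upper-quartile factors and to 193 and 500 with total counts alone. limma-voom, paired, called 0 and placed 667 (3.03%) at an unadjusted p under 0.05. Without female 1, edgeR called 6 and placed 1276 below the unadjusted threshold, 579 on the ovary side and 697 on the brain side.

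**Figure D1:**
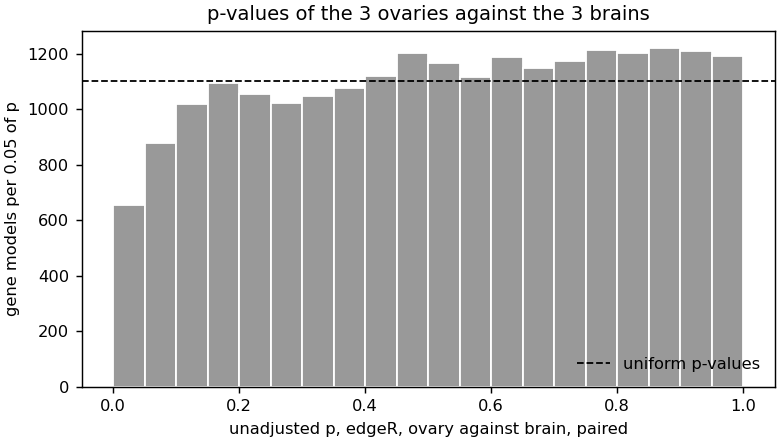
Histogram of the unadjusted p-values of the paired edgeR test of 3 ovaries against 3 brains (x axis, p in steps of 0.05) with the number of gene models in each step (y axis). The dashed line is the 1100 per step of evenly spread p-values, and the lowest step holds 656.

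DESeq2, fitted with the same pairing, called 2 gene models (0.00909%), both lower in the ovary. The first was among the abundant gene models. Its level was 636, 476 and 702 CPM in the ovaries of females 1, 2 and 3 and 2970, 883 and 5950 CPM in their brains, where CPM (counts scaled to a common library total after TMM) is the unit of level. The 3 brains lay above the 3 ovaries and ranged from 883 to 5950 CPM among themselves. Its log2 difference, ovary minus brain, was -2.07 ± 1.10 (SD, n = 3), with an adjusted p of 0.000859 in DESeq2 and 0.9999 in edgeR. In males 1, 2 and 3 the testis minus brain log2 difference of the same gene model was 3.35, -0.03 and -1.22. Values of the second are not reported here.

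Few gene models had a large tissue difference in each of the 3 females. In all 3, 2400 gene models (10.9%) were higher in the ovary by any amount and 2353 (10.7%) were lower. Of these, 4 were at least 1.5-fold higher in each female and 11 at least 1.5-fold lower. At 2-fold there was 1 in each direction. The 3 ovaries did not overlap the 3 brains in 752 gene models (3.42%) where the ovaries were higher and in 900 (4.09%) where they were lower. Such counts carry no test, and with 3 fish some gene models share a direction or separate without any tissue difference. If tissues were swapped at random within each fish, a share of 0.25 would have 1 direction in all 3. The 10.9% and 10.7% together come to less than that. How many gene models would not overlap without a tissue difference was not computed. These splits also moved with the scaling. With total counts alone 956 gene models were higher and 3822 lower in each ovary, and 208 and 905 did not overlap. With upper-quartile factors the numbers were 1721 and 2991, and 505 and 1086.

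Within single females, some gene models differed by 2-fold or more between ovary and brain. The difference reached 2-fold on the log2 CPM scale in 538 gene models of female 1, 406 of female 2 and 537 of female 3. In female 1 most of these were higher in the ovary, 440 against 98 lower. In female 2 fewer were higher than lower, 169 against 237, and in female 3 the directions were nearly even, 264 against 273. Of these gene models, which were chosen on the sum of both runs, 332, 242 and 340 reached 2-fold in each run. Among those higher in the ovary, that ovary was the highest of the 6 female samples in 329, 147 and 207. Among those lower, that brain was the highest of the 6 in 60, 183 and 155. How many gene models reach 2-fold between samples of the same tissue was not counted, so spread between samples is not separated from tissue here.

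The tissue differences were compared between the runs of a fish and between fish. Over all gene models, the ovary minus brain difference of run 1 correlated with that of run 2 at r = 0.607, 0.556 and 0.618 in females 1, 2 and 3 (Spearman rho 0.439, 0.422 and 0.532). Between females 1 and 2 the differences correlated at r = -0.0525, between females 1 and 3 at -0.147 and between females 2 and 3 at 0.046 (Spearman rho -0.00533, -0.191 and 0.0218). Comparing run 1 of one female with run 2 of another gave -0.126 to 0.0494 over 6 combinations. The 2 runs are of the same fish and tissue. The labels count each as a library but do not explain the prefix, so whether each was prepared separately cannot be told. Gene models are not independent of each other. These values describe the samples and carry no test.

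**Figure D2:**
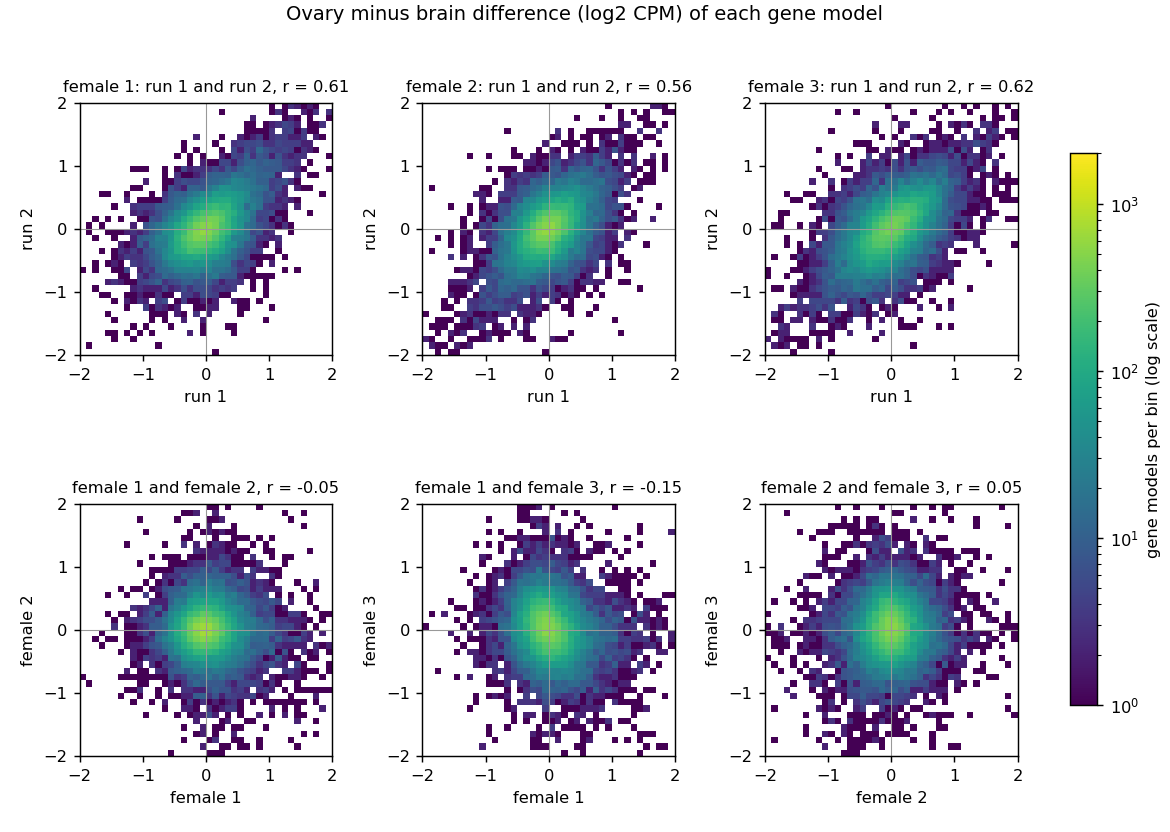
Ovary minus brain difference of each gene model in log2 CPM, shown as the number of gene models per bin (colour, log scale, axes drawn from -2 to 2). The upper panels set run 1 against run 2 of each female and stretch along the diagonal (r = 0.607, 0.556 and 0.618), and the lower panels set 1 female against another and do not (r = -0.0525, -0.147 and 0.046).

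The agreement between runs rose with abundance. Gene models were ranked by mean level and cut into 5 classes of equal size. In the lowest class (median 6.38 CPM) the runs correlated at 0.256, 0.263 and 0.289 in females 1, 2 and 3, and in the highest class (median 79.6 CPM) at 0.882, 0.840 and 0.892. From the lowest to the highest class, the differences of females 2 and 3 correlated at 0.078, 0.132, 0.147, 0.0715 and -0.0635. Those of females 1 and 3 correlated at -0.126, -0.209, -0.235, -0.233 and -0.127, and those of females 1 and 2 at 0.00883, -0.007, -0.0152, -0.0426 and -0.119. In the highest class the spread of the difference over gene models was 0.49, 0.40 and 0.49 on the log2 scale (SD over gene models, females 1, 2 and 3). It was 0.32, 0.30 and 0.36 in the middle class and 0.38, 0.39 and 0.43 in the lowest.

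The lists of gene models at 2-fold or more were set side by side for each pair of females. They hold 2.44%, 1.84% and 2.44% of all gene models in females 1, 2 and 3. Of the 538 in female 1, 77 were in the list of female 2 and 93 in that of female 3, and of the 406 in female 2, 81 were in that of female 3. Of the 538 in female 1 and the 406 in female 2, 23 were shared in the same direction, 4.28% and 5.67% of the lists, and 54 in opposite directions. Females 1 and 3 shared 33 in the same direction, 6.13% and 6.15% of the lists, and 60 in opposite directions. Females 2 and 3 shared more in the same direction, 50 (12.3% and 9.31%), than in opposite ones, 31. These shares carry no test.

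Where the high values lay was counted next, as gene models whose level, with 0.5 CPM added, was 2-fold or more above every other female sample. High in 1 sample were 116, 76 and 70 gene models in the ovaries of females 1, 2 and 3 and 21, 92 and 29 in their brains. No gene model was high in this sense in the 3 ovaries or in the 3 brains. The lowest sample of a set had to stand 2-fold above the highest of the rest, so larger sets ask more samples to be high together. Counts for sets of different size are therefore not on 1 scale. High in 2 ovaries were 1 (females 1 and 2), 0 (females 1 and 3) and 7 (females 2 and 3). High in 2 brains were 0 (females 1 and 2), 4 (females 1 and 3) and 3 (females 2 and 3). High in both tissues of 1 fish were 62 gene models in female 2 and 0 in females 1 and 3. Of the 62, 27 were at least 3-fold above. Pairs of an ovary with the brain of another female were not counted.

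**Figure D3:**
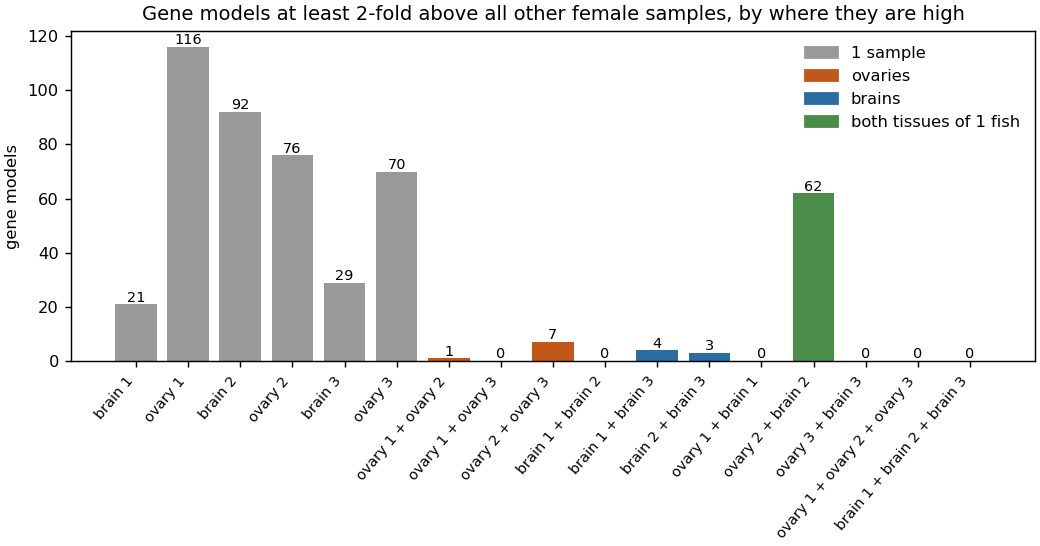
Number of gene models (y axis) at least 2-fold above all other female samples in 1 sample, in a pair of ovaries or brains, in both tissues of 1 fish, or in a whole tissue (x axis, numbers are females). Single samples hold 21 to 116 gene models, female 2 holds 62 in both tissues, pairs within a tissue hold 0 to 7, and the full sets of 3 ovaries and 3 brains hold 0. Larger sets ask more samples to be high together, so sets of different size are not on 1 scale. Pairs of an ovary with the brain of another female were not counted.

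The clearest of the 62 stood at 4010 CPM in the ovary and 5000 CPM in the brain of female 2, against 251 and 179 CPM in the ovaries and 124 and 94.9 CPM in the brains of females 1 and 3. The second stood at 1770 and 1540 CPM in ovary and brain of female 2, where the other 4 samples lay between 110 and 173 CPM. In female 2 the ovary was the higher tissue in 32 of the 62 and the brain in 30. The log2 difference, ovary minus brain, had a median of 0.05 and ran from -4.16 to 1.83. The 62 were picked for high levels in both tissues of female 2, so those levels are a description. Deviations from the tissue means, taken over all gene models with the 62 included, correlated between ovary and brain at 0.302 in female 2. The values were -0.022 in female 1 and 0.0369 in female 3.

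Of the combinations of ovaries counted above at 2-fold, that of females 2 and 3 had the most gene models, 7. In the clearest, the ovaries held 50.6 CPM in female 2 and 36.5 CPM in female 3, where the ovary of female 1 held 2.42 CPM and the brains 3.01, 3.41 and 3.19 CPM. The ovary of female 1 thus lay with the brains. The lower of the high ovaries stood 9.48-fold above the highest other female sample, with 0.5 CPM added. Testes and brains of the 3 males, scaled separately from the female samples, held 3.43 to 8.49 CPM. A second one held 146 and 130 CPM in the ovaries of females 2 and 3 and 23.3 CPM in that of female 1, with 23.9 to 28.1 CPM in the brains. These are among the 6 gene models that edgeR called without female 1, of which 4 were higher and 2 lower in the ovary. The gene models were picked for high levels in the ovaries of females 2 and 3, the fish that this refit keeps. Their calls there therefore add no support, and their levels are given as a description.

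Most large fitted changes reached 2-fold in 1 or 2 of the 3 females. Of the 75 gene models with a fitted change of at least 2-fold, 27 had 1 direction in all 3 females, 33 reached 2-fold in that direction in 1 female, 40 in 2 and 2 in all 3. In 12 of the 75 another female differed by at least 2-fold the opposite way. Ranked instead by the plain mean of the 3 log2 differences, the first gene model held 1890 CPM in the brain of female 1. It held 9.49 to 21.7 CPM in the other 5 samples, and its fitted log2 change was -1.77. Another of the first 5 held 369 CPM in the ovary of female 1 and 10.4 to 16.1 CPM in the other 5 samples. The first DESeq2 call described above was also among the first 5 and was lower in the ovary in all 3 females.

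The variance of log2 CPM was taken around each gene model's own mean, so differences in level between gene models are left out. Of this variance in the 6 female samples, 15.9% lay between the tissues and 46.7% between the fish, and 37.4% remained. The remainder holds tissue differences that vary from fish to fish together with counting and library error, which were not separated. Per degree of freedom, of which tissue has 1 and fish and the remainder 2 each, the tissue part was 0.848 and the fish part 1.25 of the remaining part. In the 6 male samples the shares were 22.7% for tissue, 36.9% for fish and 40.4% for the remainder, and the tissue part was 1.12 of the remaining part per degree of freedom. The sexes were not compared by a test on these shares.

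Ovaries and brains overlapped in how concentrated their counts were. The 220 most abundant gene models of the series held 22.2%, 26.4% and 21.5% of counts in the ovaries of females 1, 2 and 3 and 17.4%, 26.5% and 22.7% in their brains. The ovary was above the brain in female 1 and below it in female 3, with almost no difference in female 2. The mean difference was 1.18 ± 3.15 percentage points (SD, n = 3, two-sided exact permutation p = 1.0, swapping tissues within fish, where 3 fish cannot give less than 0.25). Without female 1 the mean difference was -0.608.

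**Figure D4:**
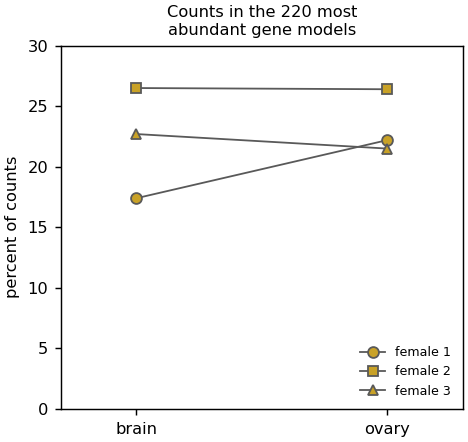
Percent of a sample's counts (y axis, from 0) in the 220 most abundant gene models, in brain and ovary (x axis) of each female, lines joining the tissues of a fish. Female 1 goes from 17.4% in brain to 22.2% in ovary, and the other 2 females change by less.

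Whether ovary and testis differ from the brain in different ways was tested as an interaction over the 12 samples, with the fish as a block. edgeR called 0 of 22015 gene models (0%), with 442 (2.01%) at an unadjusted p under 0.05, limma-voom called 0 and DESeq2 called 1. The 1 gene model stood at 113, 156 and 129 CPM in the ovaries and 246, 207 and 291 CPM in the brains of females 1, 2 and 3. Its gonad minus brain log2 difference was -1.13, -0.40 and -1.17 in the females and 0.51, 0.31 and 0.53 in males 1, 2 and 3. The call was made on these values, so their opposite signs add no support to it. DESeq2 gave the difference between the sexes as -1.34 on the log2 scale with an adjusted p of 0.00856.

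Averaged over fish, the ovary minus brain and the testis minus brain differences correlated across gene models at r = 0.260 (Spearman rho 0.258), a description over gene models of 2 sets of fish that share no sample. Single females and males correlated at -0.0997 to 0.244 over 9 pairs, and the males among themselves at -0.145 to 0.164. Of the 656 gene models at an unadjusted p under 0.05 in females, 463 (70.6%) had a mean difference of the same sign in males, against 58.9% of all gene models. The 656 had larger differences in females (median absolute log2 fold change 0.49, against 0.10 over all tested). The 2 shares were not matched for size of difference or abundance. The gonad was higher in all 6 fish in 428 gene models (1.94% of all) and lower in all 6 in 452 (2.05%). Females and males went opposite ways, 3 against 3, in 219 gene models (0.995%) that were higher in the ovary and 202 (0.918%) that were lower. These counts carry no test.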

How the data were processed

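Per the labels' protocols, poly(A) RNA of brain and gonad was made into barcoded libraries, 24 in all for 12 samples of fish and tissue, and sequenced on a SOLiD 4 instrument. The reads were mapped by the authors to the arowana genome (Scleropages formosus), per the series design text, with Bowtie named in the submitters' processing notes. The counting step, genome build, annotation, strand setting and filters were not given in the sources used here. The deposited table holds raw counts per gene model and library, which were summed over the 2 columns of a fish and tissue. The labels count each column as a library but do not explain the title prefix. Whether the 2 of a sample were prepared separately cannot be told. Near-identical copies and overlapping or antisense gene models may share reads.

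Tests used edgeR 4.0.16 in R 4.3.3 (TMM scaling, minimum count 10, minimum total count 15, quasi-likelihood F test) on the 6 female samples, with fish and tissue as terms, and on 12 samples for the interaction. The filter removed 10 gene models in the fit of the 6 female samples, and 22015 gene models were tested for the interaction. DESeq2 1.42.0 and limma 3.58.1 were alternatives. The common biological coefficient of variation was 0.178 in the paired fit, which is the spread beyond counting error that remained after the fish and tissue terms. Log2 CPM used a prior count of 2. Ovary and brain with the same number come from 1 fish, per the labels. The correlation of their deviations from the tissue means, given in the report, was over 0.1 in 1 of 3 fish. Without the block edgeR called 0 and placed 709 at an unadjusted p under 0.05.

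The rule for named gene models took, for want of calls, the 2 with the smallest unadjusted p in each direction among those of 1 direction in all 3 females, and their values are not reported here. Single gene models described without an identifier were chosen after their values were seen. The comparison, the lists and the counts of where high values lie were chosen with earlier results of these data known. The gene lists could not be matched to identifiers.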

Additional observations from a re-analysis of the deposited data

Results flagged for a closer look

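DESeq2 called 1 gene model in the test of whether the tissue difference differs between the sexes. Its log2 value was -1.34, with an adjusted p of 0.00856 in DESeq2. In the same values that gave the call, its gonad level was below the brain level in 3 of 3 females and above it in 3 of 3 males. The edgeR and limma-voom interaction tests called 0 gene models, and the cause of the difference between the tools was not tested.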

How the results depend on the processing

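The DESeq2 refits other than the paired one, and the alternatives for where high values lie and for 2-fold in each female, were added after seeing the data. In edgeR, calls stayed at 0 without the replicate block (709 at an unadjusted p under 0.05), with RLE, upper-quartile or total-count scaling, other filters, single runs, a robust dispersion and all 12 samples in one fit. Leaving out 1 fish gave 0 to 6 calls and 502 to 1276 gene models at an unadjusted p under 0.05, the highest of both without female 1. DESeq2 called 2, and 11 without the replicate block. Without single fish it called 12 to 30, which are 30 without female 1, 25 without female 2 and 12 without female 3, with 2987, 13650 and 7680 adjusted p-values left undefined and not counted. It placed 304 at an unadjusted p under 0.05, and 387, 247 and 265 without females 1, 2 and 3. For the interaction DESeq2 called 1, and edgeR 0 under each alternative run. The median correlation of the tissue difference between females was -0.0525, and -0.147 to 0.046 without single fish. That between runs was 0.607, and 0.657 in gene models over 5 CPM in 3 samples or more. The mean difference in the share of the 220 most abundant gene models was -0.608 to 2.35 without single fish, with its sign turned without female 1. The number at least 2-fold in each female was 1 with upper-quartile scaling and 4 in run 2 alone. The 62 gene models high in both tissues of female 2 were 48 to 64 under other scalings and in single runs. Why the numbers moved without female 1 was not tested. With 3 fish the 0 calls do not show that ovary and brain are alike, and in gene models of low CPM counting error limits what can be seen.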
